A study of Mus musculus with 9 samples.

Results

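The genes described here are 32 enzymes and binding proteins of lysine acetylation, chosen by symbol from the 26202 genes of the expression table of the series. They comprise 11 histone deacetylases, 7 sirtuins, 10 lysine acetyltransferases, 2 bromodomain readers of the BET family and 2 corepressor scaffolds. All 32 were found and all 32 passed the filter on low values, among 12868 genes tested. RNA was sequenced from ATDC5, a mouse line of chondrogenic cells that can be led through cartilage differentiation in a dish. The 3 groups, each of 3 libraries, were cells given acetate, cells given ethanol and cells labelled control. All groups shared a DMEM/F-12 medium with serum, to which ascorbate, beta-glycerophosphate and insulin-transferrin-selenium were added at the time of treatment. Doses, durations and what the controls received are not given in the sources used here. It is not stated that replicates were separate cultures, so p-values measure the spread between these libraries, which may be technical. The series asks whether acetate, a product of ethanol oxidation, could mediate effects of ethanol on chondrocyte differentiation and bone.

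Acetyltransferases transfer the acetyl group of acetyl-CoA to lysines of histones and other proteins. Histone deacetylases of classes I, II and IV remove it with a zinc ion in the active site, and sirtuins do so while consuming NAD+. Bromodomain proteins such as Brd2 and Brd3 bind the acetylated lysine, and Ncor1 and Sin3a are scaffolds that hold deacetylases at repressed genes. Acetate can be converted to acetyl-CoA, the donor of the reaction. In cartilage, Hdac4 is known as a brake on chondrocyte hypertrophy that acts on Mef2c and Runx2.

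Upstream sequence is shown for Hdac11, the member that passed the test, and for Sirt1, which had the widest log2 difference with ethanol among the members that did not. Both come from the RefSeq promoter table on GRCm38.p6, in which 28 of the 32 genes were matched. They hold only bases outside annotated exons of the same gene, and exons of other genes were not excluded. For Hdac11 the 100 bases at chr6:91156565-91156664 on the plus strand end directly before the first annotated exon, and capitals mark a GC box (GGGCGG, searched on both strands). For Sirt1 the 235 bases at chr10:63339051-63339285 on the minus strand lie upstream of the RefSeq start, inside the span that GENCODE gives the gene, and capitals mark E-boxes (CACGTG, which reads the same on both strands).
Hdac11: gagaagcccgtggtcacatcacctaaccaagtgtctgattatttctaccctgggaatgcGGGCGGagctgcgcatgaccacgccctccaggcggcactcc
Sirt1: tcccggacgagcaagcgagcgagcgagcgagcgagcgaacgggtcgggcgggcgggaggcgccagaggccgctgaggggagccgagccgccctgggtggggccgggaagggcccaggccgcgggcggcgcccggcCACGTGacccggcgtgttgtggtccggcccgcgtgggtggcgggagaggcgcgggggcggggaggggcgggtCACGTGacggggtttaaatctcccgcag
The Hdac11 stretch had a GC content of 60% and 6 CpG dinucleotides, beside medians of 50% and 2 over all 32851 promoters at that length. Its GC box occurred in 10.5% of those promoters. The Sirt1 stretch had a GC content of 78.3% and 36 CpG dinucleotides, beside medians of 51.9% and 5. It held 2 E-boxes, a motif present in 5.49% of promoters at that length. The same stretch also held 6 GC boxes, which are not marked, and 30.6% of promoters at that length had at least 1. In the Hdac11 stretch there were 0 E-boxes. These matches describe letters and were not tested against binding or expression.

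Levels are given in TMM-scaled CPM, the reads of a gene relative to the scaled total of its library, from libraries of 28.7 to 41.9 M reads. Acetate replicate 2 stood apart from the other acetate libraries. Relative to them, 1588 genes were lower and 34 were higher by more than 2-fold, and the difference correlated with transcript GC content at r = 0.83 across 12745 genes. Log2 differences that involve acetate are also given without this library. Chondrocyte markers (Sox9, Col2a1, Acan, Col9a1, Col11a2, Comp and Matn1) were all present in every group. Their summed level was 5326 to 6148 CPM in acetate libraries, 4725 to 5858 CPM in ethanol libraries and 9772 to 12980 CPM in control libraries. Osteoblast markers (Bglap, Ibsp and Sp7) summed to 4529 to 7534 CPM with acetate, 4234 to 4741 CPM with ethanol and 6946 to 8157 CPM in controls. Ibsp dominated these sums, and the lowest acetate sum was that of acetate replicate 2, with Ibsp at 4186 CPM. Bglap went the other way with acetate, at 20.9, 27.7 and 20.7 CPM against 18.7, 12.0 and 16.3 CPM in controls. Sp7 overlapped between acetate and control libraries. Hypertrophic markers (Col10a1, Ihh and Mmp13) summed to 80.8 to 111 CPM with acetate, 111 to 122 CPM with ethanol and 277 to 323 CPM in controls. The muscle regulators Myod1 and Myog were listed at 0 throughout, and the sums of adipocyte, macrophage and epithelial markers reached at most 1.2 CPM in any library. Endothelial markers summed to 1.09 to 1.83 CPM with acetate, 1.99 to 2.15 CPM with ethanol and 1.12 to 1.26 CPM in controls.

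Set per kilobase of transcript, the most abundant members in control cells were Hdac2, a class I deacetylase, at 111 ± 6.07 CPM per kb (SD, n = 3) and the reader Brd2 at 98.1 ± 4.09 CPM per kb. Hat1, the acetyltransferase of newly made histones, followed at 67.4 ± 3.37 CPM per kb. Hdac1, the close paralog of Hdac2, stood at 31.9 ± 2.38 CPM per kb and Kat7, a MYST acetyltransferase, at 31.6 ± 2.28 CPM per kb, which is within their spread. At the low end were Hdac10 at 3.22 ± 0.76, the mitochondrial sirtuin Sirt5 at 2.76 ± 0.19 and Hdac9 at 2.75 ± 0.30 CPM per kb, and the Sirt5 and Hdac9 levels lay within each other's spread. Hdac11 ranked 22 and Sirt1 ranked 26 of 32 on this scale. The length was that of 1 annotated transcript per gene, whichever transcripts were expressed, so the ranks depend on that choice. Ep300 stood at 10.5 ± 1.39 CPM per kb in controls and its paralog Crebbp at 3.32 ± 0.46 CPM per kb.

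**Figure D1:**
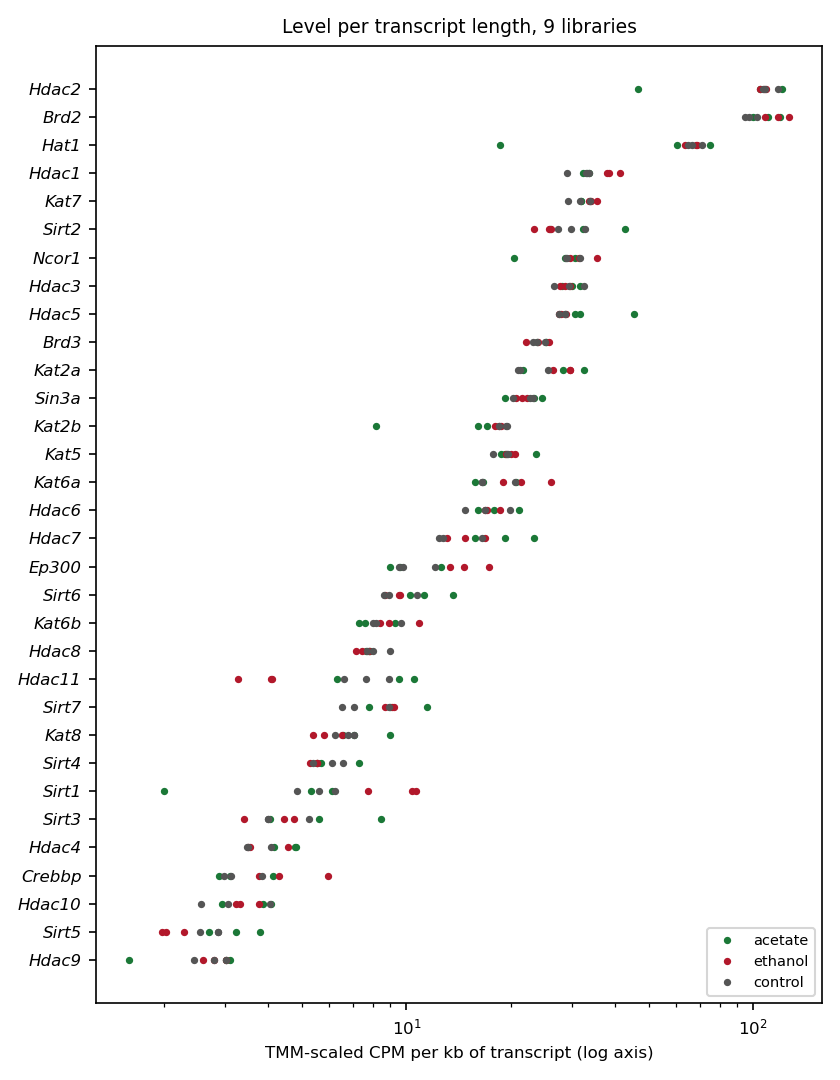
Level of each of the 32 genes in the 9 libraries, in TMM-scaled CPM per kilobase of transcript on a log axis, with points for acetate, ethanol and control libraries. In controls Hdac2 and Brd2 were at the top with 111 and 98.1 CPM per kb, and Sirt5 and Hdac9 were at the bottom.

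Replicates of the 32 genes varied by a median coefficient of variation of 17% in acetate, 6.93% in ethanol and 9.42% in control libraries. Among ethanol libraries replicate 3 was the highest of its group for 17 of the 32 genes, against 42.0% of all genes tested. Among control libraries replicate 3 was the highest for 25 of the 32, against 51.1% of all genes tested. The deviation of ethanol replicate 3 correlated with the log2 of transcript length at r = 0.818 across the 32 genes, beside 0.518 across all genes with a known length. For control replicate 3 the same correlations were 0.428 and 0.318. These correlations are across genes that share a library and are descriptions.

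With ethanol, Hdac11 fell to a mean of 10.1 ± 1.25 CPM, against 20.49 ± 3.01 CPM in controls (SD, n = 3 each), while the acetyltransferase paralogs Ep300 and Crebbp and the deacetylases Sirt1 and Hdac1 had higher means than in controls. Of the 32 genes, 1 passed the test at an adjusted p under 0.05, against 3.93% of all genes tested. Hdac11 was the gene that passed. Members whose ethanol and control libraries did not overlap numbered 8, or 25.0%, beside 43.4% of all genes tested. They were Brd2, Ep300, Hdac1, Kat2a and Sirt1 on the higher side and Hdac11, Sirt2 and Sirt5 on the lower side. The median log2 fold change was 0.03 over the 32 genes and 0.00 over all genes tested.

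Hdac11, the only class IV deacetylase and known for removing long fatty acyl groups from lysine, lies at chr6:91156665-91174692 on the plus strand of GRCm38. Its levels were 10.8, 10.9 and 8.70 CPM in ethanol libraries, against 23.6, 20.3 and 17.6 CPM in control libraries. Every ethanol library lay below every control library. On the scale of log2 of CPM plus 1, the change was -0.94 ± 0.20 (SE, limma adjusted p = 0.0319). By replicate number the ratio of ethanol to control was 0.460, 0.536 and 0.495. With replicate number as a block the adjusted p was 0.0078. Over 17 alternatives it ran from 1.32e-04 to 0.159, and 10 of them kept the call. The call was lost when any 1 ethanol library was left out (adjusted p 0.0874 to 0.139) and when any 1 control library was left out (0.0662 to 0.159), while the change stayed between -0.84 and -1.04. GENCODE places Gm44002 on the opposite strand over 594 exonic bases of Hdac11, 15.4% of the total. The kit is stranded, but the strand setting of the counting is not given in the sources used here.

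Cell type markers moved in the same comparison. The summed chondrocyte markers were lower in ethanol than in control libraries, as were those of osteoblasts. In acetate libraries the chondrocyte sum was 5326 to 6148 CPM, overlapping that with ethanol, and Hdac11 stood at 25.3, 27.9 and 16.8 CPM. Col2a1, at 3906 to 4719 CPM with acetate, dominated that sum. Matn1 measured 27.5, 28.5 and 22.1 CPM with acetate, against 9.7, 6.4 and 6.5 CPM with ethanol. Comp measured 46.9, 53.6 and 48.7 CPM with acetate, against 27.35, 20.92 and 30.41 CPM with ethanol. In controls Matn1 was at 57.8, 53.8 and 52.6 CPM and Comp at 106.9, 82.38 and 107.9 CPM, above all acetate libraries. Hdac11 overlapped between acetate and control libraries. The other chondrocyte markers overlapped between acetate and ethanol. Outside that list Ihh, Bglap and Sp7 were higher with acetate than with ethanol and Col10a1 was lower, each without overlap. Ibsp and Mmp13 overlapped between acetate and ethanol. The part of cell state in the Hdac11 difference was not tested, and in bulk RNA fewer cells of a type and less RNA per cell cannot be told apart.

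**Figure D2:**
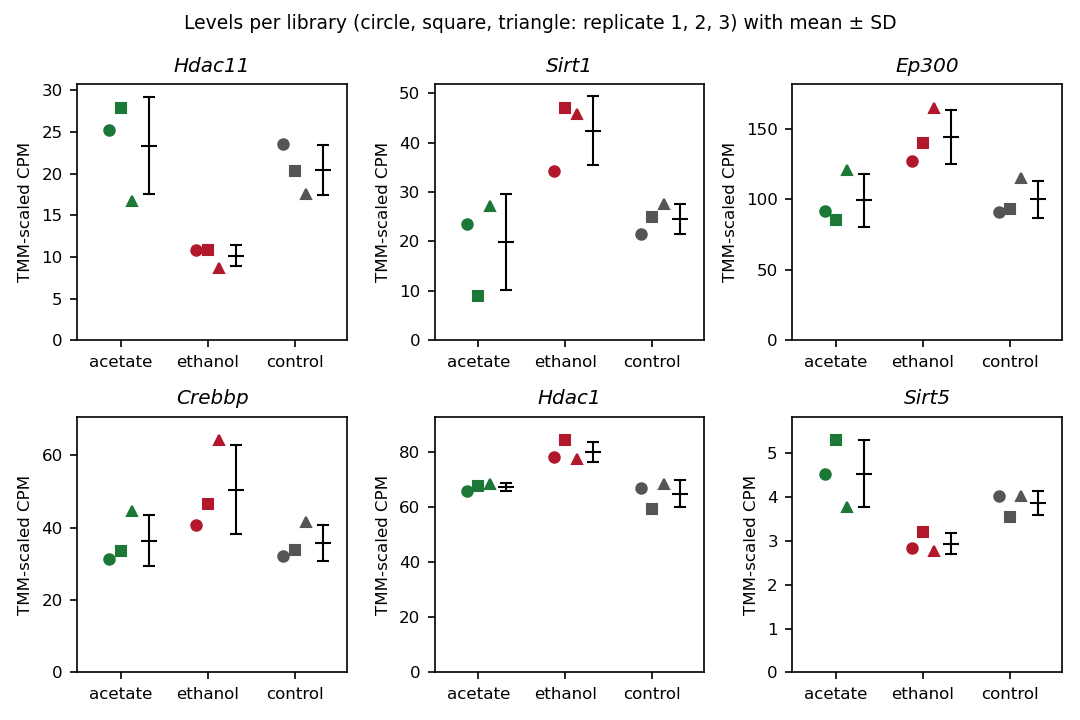
Levels of Hdac11, Sirt1, Ep300, Crebbp, Hdac1 and Sirt5 in TMM-scaled CPM, with 1 point per library and the mean ± SD of 3 libraries per group, ordered acetate, ethanol, control. The ethanol libraries of Hdac11 lie at 8.70 to 10.9 CPM, below all acetate and control libraries, and acetate replicate 2 is the lowest Sirt1 point at 8.87 CPM.

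Ep300 and Crebbp, which encode the paralogous coactivators p300 and CBP at chr15:81585351-81652077 and chr16:4081328-4213997, had higher means with ethanol but did not pass the test in the fit without a block. Ep300 measured 128, 140 and 165 CPM in ethanol libraries, against 91.2, 93.5 and 115 CPM in control libraries, with no overlap. The log2 difference was 0.52 ± 0.17 (adjusted p = 0.125). Crebbp measured 40.7, 46.5 and 64.3 CPM with ethanol, against 32.3, 33.8 and 41.6 CPM in controls, and these groups overlapped. Its log2 difference was 0.46 ± 0.20 (adjusted p = 0.246), and 0.28 ± 0.19 without ethanol replicate 3. Deviations of that library followed transcript length, and in it Crebbp stood 0.55 above the other ethanol libraries on the log2 scale. Control replicate 3 was kept in that fit, and in it Crebbp stood 0.32 above the other control libraries. Within each replicate number both were higher with ethanol, by ratios of 1.399, 1.497 and 1.432 for Ep300 and 1.26, 1.38 and 1.54 for Crebbp. With replicate number as a block, 3 members passed, against 8.35% of all genes tested. Ep300 rose in that fit (adjusted p = 0.023), as did Crebbp (adjusted p = 0.0326), beside the fall of Hdac11. Over 17 alternatives the adjusted p ran from 0.0011 to 0.429 for Ep300, of which 5 passed, and from 0.00238 to 0.658 for Crebbp, of which 3 passed.

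Among the sirtuins, Sirt1, a nuclear NAD+-dependent deacetylase encoded at chr10:63319005-63381704, had the widest difference. Its levels were 34.4, 47.1 and 45.9 CPM in ethanol libraries, against 21.4, 24.9 and 27.6 CPM in control libraries. The groups did not overlap, and the ratios by replicate number were 1.60, 1.89 and 1.67. The log2 difference of 0.76 ± 0.34 did not pass (adjusted p = 0.271). In that fit the variance of each gene was shared with the acetate group, where Sirt1 was at 23.6, 8.87 and 27.1 CPM. Without acetate replicate 2 the same difference had an SE of 0.13 and an adjusted p of 0.00438, within a range of 0.00331 to 0.635 over the alternatives. In the fit without that library 4 members passed (Ep300, Hdac1, Hdac11 and Sirt1), against 21.5% of all genes tested.

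Lower means with ethanol were seen for Sirt5 and Sirt2. Sirt5, a mitochondrial remover of succinyl and malonyl groups, was at 2.84, 3.20 and 2.77 CPM with ethanol, against 4.01, 3.55 and 4.01 CPM in controls, a log2 difference of -0.30 ± 0.13 (adjusted p = 0.238). Sirt2, a largely cytoplasmic deacetylase of tubulin, measured 48.1, 47.6 and 43.0 CPM with ethanol, against 60.3, 55.0 and 50.6 CPM in controls. Neither of these passed, although ethanol and control libraries did not overlap. The means of Sirt3 were 6.13 and 6.44 CPM in ethanol and control libraries, those of Sirt4 were 9.78 and 10.8 CPM, those of Sirt6 were 17.5 and 17.8 CPM and those of Sirt7 were 15.6 and 13.0 CPM.

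Class I deacetylases differed little with ethanol apart from Hdac1. Hdac1 measured 78.3, 84.4 and 77.4 CPM with ethanol, against 67.0, 59.4 and 68.4 CPM in controls. These ranges did not overlap, with a log2 difference of 0.30 ± 0.10 that did not pass (adjusted p = 0.153). The means of Hdac2 were 214 and 222 CPM in ethanol and control libraries, of Hdac3 58.3 and 60.0 CPM and of Hdac8 14.5 and 15.9 CPM. Class IIa enzymes, which shuttle between nucleus and cytoplasm, had log2 differences from -0.01 to 0.10. Of the class IIb enzymes, the tubulin deacetylase Hdac6 averaged 72.7 CPM with ethanol and 71.1 CPM in controls, and the polyamine deacetylase Hdac10 averaged 8.29 CPM with ethanol and 7.77 CPM in controls.

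Of the remaining acetyltransferases and readers, Kat2a, the GCN5 enzyme of the SAGA complex, measured 80.9, 90.4 and 90.0 CPM with ethanol, against 64.9, 63.9 and 77.9 CPM in controls. Its log2 difference was 0.34 ± 0.16 (adjusted p = 0.284). Brd2 measured 504, 548 and 590 CPM with ethanol, against 453, 440 and 477 CPM in controls, a difference of 0.26 ± 0.11 (adjusted p = 0.262). Both were without overlap and neither passed. Kat6a averaged 202 ± 33.2 CPM with ethanol and 163 ± 21.6 CPM in controls (SD, n = 3 each). The MYST enzymes Kat5, Kat6b, Kat7 and Kat8 had log2 differences from -0.17 to 0.12. Their means with ethanol and in controls were 43.1 and 40.9 CPM for Kat5, 65.5 and 60.1 CPM for Kat6b, 122 and 112 CPM for Kat7, and 9.30 and 10.6 CPM for Kat8. Kat2b averaged 85.6 CPM with ethanol and 89.1 CPM in controls, and Hat1 averaged 106 CPM in both groups. Brd3 was at 130 CPM in both groups, Ncor1 averaged 291 and 270 CPM with ethanol and in controls, and Sin3a averaged 112 and 115 CPM.

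**Figure D3:**
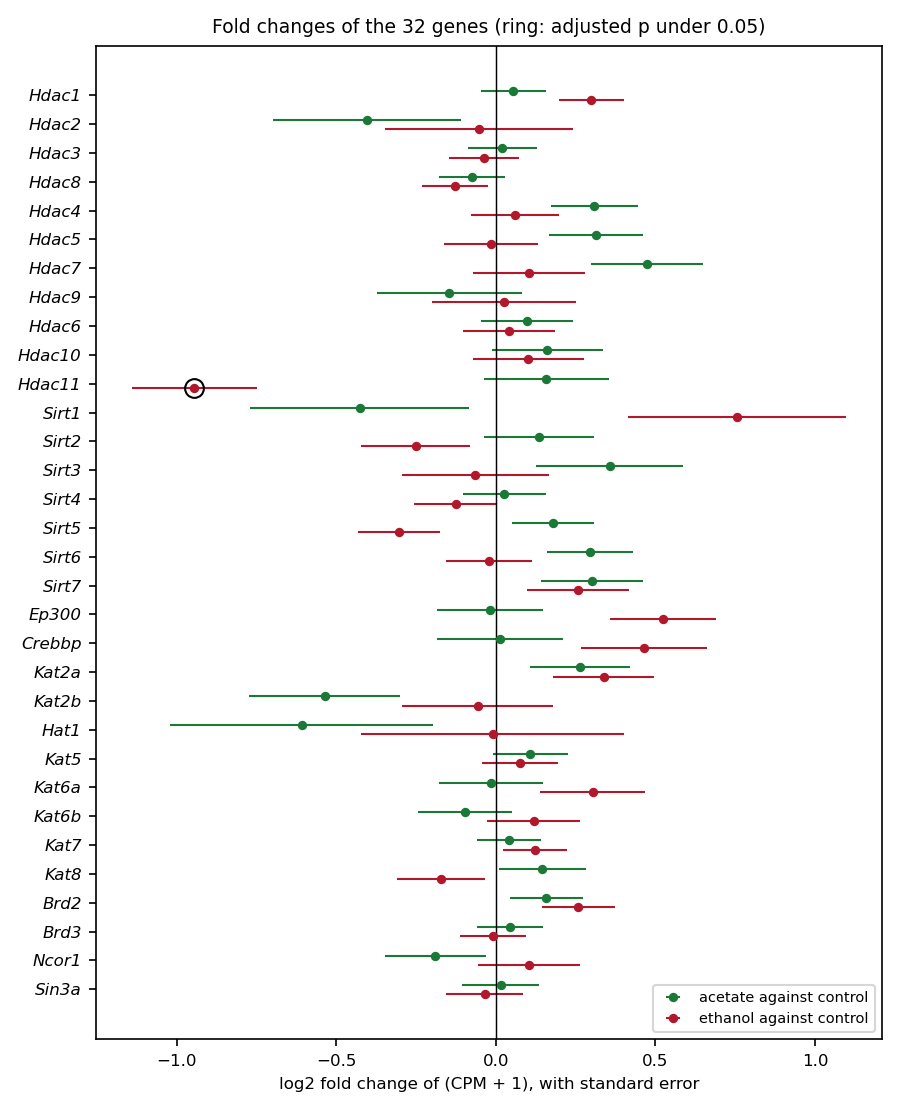
Log2 fold change of each of the 32 genes, on the scale of log2 of CPM plus 1, for acetate against control and ethanol against control, with bars of 1 standard error from limma and a ring where the adjusted p is under 0.05. The single ring is Hdac11 with ethanol at -0.94.

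With acetate, no member differed from controls past the threshold, against 1.0% of all genes tested. At an unadjusted p under 0.05 there were 3 (Hdac4, Hdac7 and Kat2b), or 9.38%, beside 14.6% of all genes tested. The median log2 fold change was 0.05 over the 32 genes and -0.01 over all genes tested. Acetate and control libraries did not overlap for Hdac4, Hdac5 and Kat2b, again 9.38%, beside 19.5% of all genes tested. This comparison and that of ethanol share the control libraries.

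Hdac11 measured 25.3, 27.9 and 16.8 CPM in acetate libraries, against 23.6, 20.3 and 17.6 CPM in control libraries, and the groups overlapped. The log2 difference was 0.16 ± 0.20 (adjusted p = 0.656), and 0.02 ± 0.18 without acetate replicate 2. With each other single library left out it ran up to 0.37, which was the value without acetate replicate 3, and it was 0.09 without acetate replicate 1 and 0.06 without control replicate 3. Ep300 averaged 99.3 ± 18.7 CPM with acetate and 100.03 ± 13.3 CPM in controls, and Crebbp averaged 36.5 ± 7.16 CPM with acetate and 35.9 ± 4.99 CPM in controls. Hdac1 was at 65.8, 67.8 and 68.5 CPM with acetate, against 67.0, 59.4 and 68.4 CPM in controls, and these overlapped.

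The 4 class IIa deacetylases included 3 with a higher mean under acetate, none past the threshold. Hdac7 measured 66.7, 98.7 and 81.4 CPM in acetate libraries, against 52.3, 53.9 and 69.8 CPM in control libraries, a log2 difference of 0.48 ± 0.18 (adjusted p = 0.262), and 0.34 ± 0.15 without acetate replicate 2. Hdac4 measured 33.6, 39.0 and 38.7 CPM with acetate, against 28.4, 28.1 and 33.0 CPM in controls, a difference of 0.31 ± 0.14 (adjusted p = 0.34), and 0.27 ± 0.13 without that library. Hdac5 measured 116, 171 and 120 CPM with acetate, against 104, 109 and 109 CPM in controls, and acetate replicate 2 gave its highest value. The Hdac5 difference of 0.31 ± 0.15 was 0.14 ± 0.07 without it. Hdac9 averaged 20.4 ± 6.76 CPM with acetate and 21.9 ± 2.36 CPM in controls, a difference of -0.15 ± 0.23 that was 0.15 ± 0.11 without acetate replicate 2. Gm26720 overlaps 22.4% of the exonic bases of Hdac4.

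For Kat2b, Hat1, Hdac2 and Sirt1 the acetate means were lower than those of controls, and acetate replicate 2 was the lowest library of each. Kat2b, the PCAF acetyltransferase, measured 79.7, 38.1 and 75.0 CPM with acetate, against 90.3, 86.2 and 90.8 CPM in controls. Its log2 difference was -0.54 ± 0.24 (adjusted p = 0.34), and -0.20 ± 0.07 without acetate replicate 2 (adjusted p = 0.181). Hat1 measured 118, 29.4 and 94.8 CPM with acetate, against 112, 105 and 102 CPM in controls. Its difference of -0.61 ± 0.41 (adjusted p = 0.458) was -0.0026 ± 0.10 without that library. Hdac2 measured 242, 93.1 and 209 CPM with acetate, against 236, 217 and 214 CPM in controls, and its difference of -0.40 ± 0.29 (adjusted p = 0.479) was 0.02 ± 0.09 without it. Sirt1 gave -0.43 ± 0.34 (adjusted p = 0.509) and 0.04 ± 0.15 without it. The log2 differences of the members not given singly ran from -0.19 for Ncor1 to 0.36 for Sirt3. Without acetate replicate 2 these were -0.0117 for Ncor1 and 0.11 for Sirt3, and the range ran from -0.09 for Sirt4 to 0.19 for Sirt6.

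Across the 32 genes the deviation of acetate replicate 2 from the other acetate libraries followed transcript GC content at r = 0.868, beside 0.83 across all genes. Hat1, with a GC content of 41.1%, deviated by -1.82 on the log2 scale, Sirt1 at 44.0% by -1.41 and Hdac2 at 44.4% by -1.27. At the other end Sirt3 deviated by 0.74 and Hdac5, with 60.9%, by 0.53. With the GC trend removed from every library and replicate number as a block, Hdac4 (0.22 on the log2 scale), Hdac7 (0.27) and Kat2b (-0.43) differed between acetate and control past the threshold. In that fit 20.7% of all genes did so. With the GC trend removed and no block no member passed, against 5.99% of all genes.

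**Figure D4:**
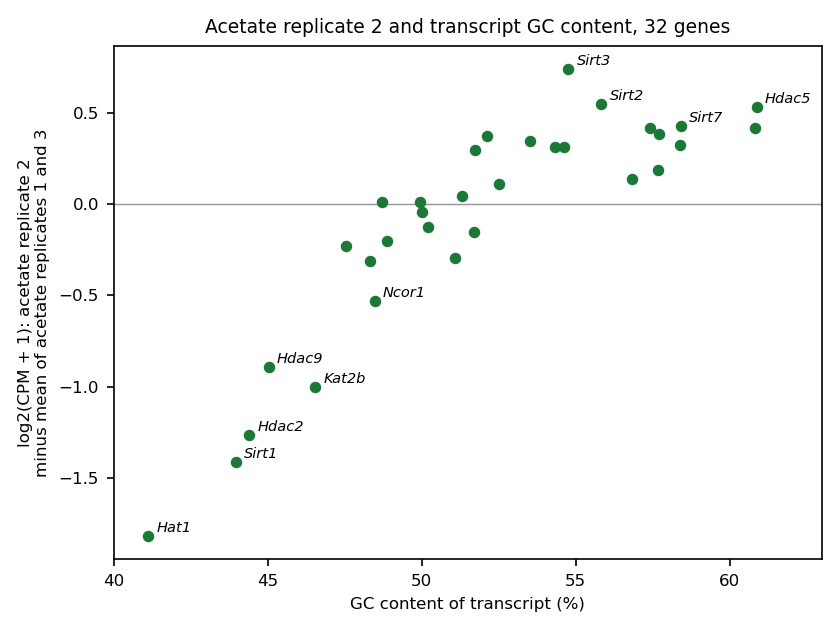
Deviation of acetate replicate 2 from the mean of the other acetate libraries, in log2 units, against the GC content of the transcript in percent, with 1 point for each of the 32 genes. The points run from Hat1 at 41.1% and -1.82 up to genes near 60% with positive deviations, at r = 0.868.

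Acetate and ethanol were also compared directly. This comparison shares its ethanol libraries with ethanol against control, so calls in both are not independent. Hdac11 was higher with acetate and was the 1 member past the threshold, against 3.73% of all genes tested. Its 25.3, 27.9 and 16.8 CPM in acetate libraries stood against 10.8, 10.9 and 8.70 CPM in ethanol libraries, without overlap. The log2 difference was 1.103 ± 0.195 (limma adjusted p = 0.016) and the ratios by replicate number were 2.34, 2.56 and 1.93. Without acetate replicate 2 it was 0.96 ± 0.18 (adjusted p = 0.0089). Of 17 alternatives 13 kept the call, with adjusted p from 2.12e-04 to 0.081. The exceptions were each of the 3 ethanol libraries left out (0.0579 to 0.081) and a fit on the 6 acetate and ethanol libraries alone (0.0692).

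Members whose acetate and ethanol libraries did not overlap numbered 9, or 28.1%, beside 27.8% of all genes tested. Higher with acetate were Hdac5, Hdac11, Kat8, Sirt5 and Sirt6, and lower were Ep300, Hdac1, Kat2b and Sirt1. Sirt5 measured 4.52, 5.29 and 3.77 CPM with acetate, against 2.84, 3.20 and 2.77 CPM with ethanol, a log2 difference of 0.48 ± 0.13 that did not pass (adjusted p = 0.0746), and 0.38 ± 0.12 without acetate replicate 2 (adjusted p = 0.0753). Sirt1 measured 23.6, 8.87 and 27.1 CPM with acetate, against 34.4, 47.1 and 45.9 CPM with ethanol. The difference of -1.18 ± 0.34 did not pass (adjusted p = 0.0973). Without acetate replicate 2 it was -0.71 ± 0.15 and passed (adjusted p = 0.0172, range over alternatives 0.00523 to 0.294), with Hdac11 as the other member past the threshold and 8.61% of all genes.

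Ep300 measured 91.6, 85.6 and 121 CPM with acetate, against 128, 140 and 165 CPM with ethanol, a log2 difference of -0.54 ± 0.17 (adjusted p = 0.113), and -0.445 ± 0.15 without acetate replicate 2. For Crebbp the levels were 31.2, 33.5 and 44.6 CPM with acetate, against 40.7, 46.5 and 64.3 CPM with ethanol, a difference of -0.45 ± 0.20 (adjusted p = 0.233). It was -0.40 ± 0.20 without acetate replicate 2 and -0.27 ± 0.19 without ethanol replicate 3. Within every replicate number both were lower with acetate. With replicate number as a block, Ep300 was lower with acetate than with ethanol (adjusted p = 0.023), as was Crebbp (adjusted p = 0.042). Hdac11 was higher, which made 3 members against 6.4% of all genes. Control means were 100.03 CPM for Ep300 and 35.9 CPM for Crebbp, beside acetate means of 99.3 and 36.5 CPM. Over the alternatives the adjusted p ran from 0.00108 to 0.361 for Ep300 and from 0.00239 to 0.556 for Crebbp. Sirt3, a mitochondrial deacetylase, measured 8.21, 12.3 and 5.91 CPM with acetate, against 6.92, 6.49 and 4.96 CPM with ethanol, a difference of 0.42 ± 0.23 (adjusted p = 0.307). The Sirt3 difference was 0.17 ± 0.17 without acetate replicate 2, and 0.65 without acetate replicate 3. It shares 5.73% of its exonic bases with Psmd13 and 7% with Ric8a.

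**Figure D5:**
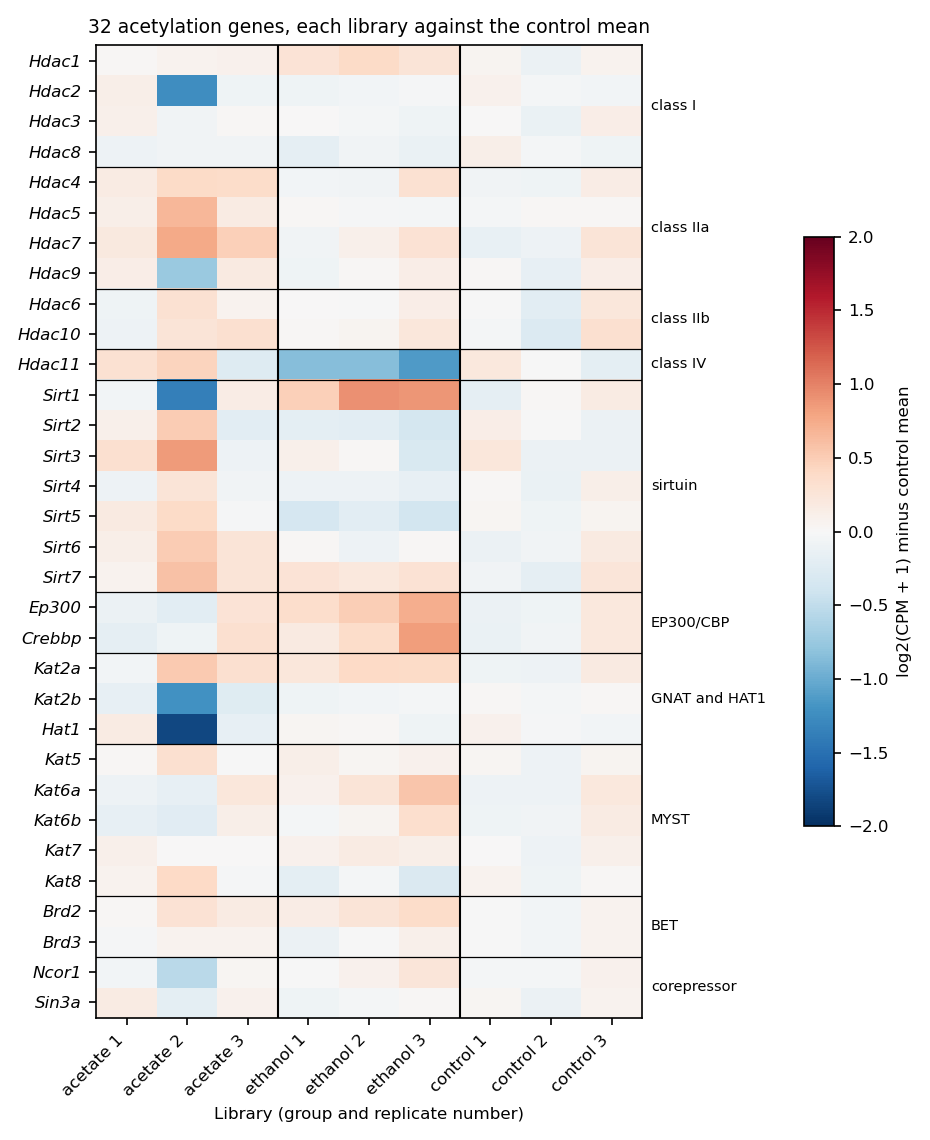
Deviation of each library from the mean of the control libraries, in log2 units from -2 to 2, for the 32 genes grouped by class, with acetate, ethanol and control libraries side by side. Hdac11 is low in the 3 ethanol libraries, and acetate replicate 2 is low for Hat1, Sirt1 and Hdac2.

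Same-signed differences in all 3 replicate numbers were counted as a description. For ethanol against control, 14 members (43.8%) were higher in every number, beside 33.7% of all genes tested, and 5 (15.6%) were lower in every number, beside 33.7%. For acetate against ethanol 10 members (31.2%) were higher, beside 29.2% of all genes tested, and 8 (25.0%) were lower, beside 22.7%. Members on the higher side with ethanol included Brd2, Crebbp, Ep300, Hdac1, Kat2a and Sirt1, and the lower side held Hdac8, Hdac11, Kat2b, Sirt2 and Sirt5.

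A further 92 genes of the same machinery, none of them members, covered deacetylase complexes, acetyltransferase complexes and coactivators, other acetyl-lysine readers, and partners and kinases of class IIa deacetylases. Of these, 90 were tested, while Prkd1 and Cecr2 were below the filter. None passed for acetate against control, beside 1.0% of all genes tested. For ethanol against control 1 passed, or 1.11% beside 3.93% of all genes tested: Ing4, a reader subunit of the HBO1 acetyltransferase complex, fell. It measured 30.0, 29.8 and 27.3 CPM in ethanol libraries, against 43.9, 39.2 and 41.4 CPM in control libraries, a log2 difference of -0.50 ± 0.12 (limma adjusted p = 0.0485). Of 17 alternatives 10 kept that call, with adjusted p up to 0.234. For acetate against ethanol 1 passed, or 1.11% beside 3.73% of all genes tested. Tada1, a subunit of SAGA, measured 14.6, 12.4 and 15.2 CPM in acetate libraries, against 20.0, 20.9 and 20.8 CPM in ethanol libraries. Its log2 difference was -0.52 ± 0.12 (adjusted p = 0.0389), with 8 of 17 alternatives keeping the call and adjusted p up to 0.173. The number of these genes past the threshold changed with the fit. For ethanol against control it was 3 with the replicate block (3.33%, beside 8.35% of all genes tested). It was 14 without acetate replicate 2 (15.6%, beside 21.5%) and 15 with the GC trend removed (16.7%, beside 18.1%). With the 6 libraries compared it was 16 (17.8%, beside 26.8%), and with block and GC together 32 (35.6%, beside 39.9%). It was 0 when acetate replicate 1 or any 1 ethanol or control library was left out, beside 0.762% to 4.04% of all genes. For acetate against ethanol it was 2 with the block (2.22%, beside 6.4%) and 5 without acetate replicate 2 (5.56%, beside 8.61%). It was 8 with the GC trend removed (8.89%, beside 12.0%) and 27 with both (30.0%, beside 33.8%). It was 0 with no filter, the 6 libraries compared, or acetate replicate 1 or any 1 ethanol or control library left out. In those fits 0.8% to 2.9% of all genes passed. For acetate against control it was 18 with both (20.0%, beside 20.7%).

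The Hdac4 partner Mef2c averaged 300 ± 129 CPM with acetate, 291 ± 26.9 CPM with ethanol and 349 ± 37.6 CPM in controls, and acetate replicate 2 was its lowest library at 152 CPM. Runx2, a transcription factor of hypertrophic chondrocytes and osteoblasts, averaged 319 ± 36.3 CPM with acetate, 314 ± 26.8 CPM with ethanol and 352 ± 31.6 CPM in controls. Neither gene passed in any of the 3 comparisons.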

How the data were processed

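The authors deposited log2 values after TMM normalisation, per the file name, for 26202 genes in 9 libraries. The submitters' processing notes list STAR 2.7.8a, Bowtie2 2.2.5, Partek and, as genome build, mm10. The counting step is not given in the sources used here. The library floor (an offset of 1e-05 read before scaling) was subtracted after raising 2 to each value, which gave TMM-scaled CPM and library sizes of 28.7 to 41.9 M reads. Because 85.6% to 87.2% of values from 0.5 to 20.5 reads were whole within 0.02 read, they were not treated as counts.

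Genes averaging 1 CPM or more were tested with limma 3.58.1 (R 4.3.3) on log2 of CPM plus 1, which understates the change of low genes, with 1 mean per group, a trended variance shared over all 9 libraries, and p-values adjusted by Benjamini-Hochberg over 12868 genes, with a threshold of 0.05. The procedure was tested on simulated independent libraries with the same dispersion for every gene. That simulation held no GC or length trend, no outlying library and no replicate structure, so it does not cover those features of these data. Alternatives were a pseudocount of 0.1, no filter, median-of-ratios scaling, the 6 libraries compared, a replicate block, a lowess GC trend (span 0.3) removed with and without the block, voom on recovered reads, and each library left out.

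Replicate numbers come from the labels, which do not say that a number marks a shared day. Deviations from group means of same-numbered libraries correlated at 0.554, 0.363 and 0.667 for ethanol and control and at 0.15, 0.251 and 0.615 for acetate and ethanol, so the block is given there as a pairing seen in the data. The acetate and ethanol pairing was weaker, as acetate replicate 2 correlated with ethanol replicate 1 at 0.183, above the 0.15 of the first matched pair. For acetate and control they were 0.245, -0.101 and 0.408, and the numbers were not read as pairs there. The block was nevertheless fitted over all 9 libraries, so its values for acetate against control are an alternative whose pairing was not established.

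Fold changes are given for members past the threshold or with a log2 change of at least 0.4 in any comparison, and for others that illustrate their class, which were chosen after their values were seen. Some genes of the wider list are not reported here by name. The members, lists and tests were chosen with earlier results of these data known. Positions, lengths, GC content and overlaps come from GENCODE M21 on GRCm38 (24919 genes matched by symbol, 423 by synonym, 860 unmatched). Tables and plots used Python 3.11.15, pandas 2.3.3 and matplotlib 3.10.9. The labels' treatment text concerns mouse livers and HepG2 cells and was set aside.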

Additional observations from a re-analysis of the deposited data

How the results depend on the processing

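The counts of calls depended on the variance model and on single libraries. For acetate against control 129 genes passed, 20 with the 6 libraries compared, 293 with the replicate block, 763 with the GC trend removed, 2638 with both, and 0 to 448 with 1 library left out. Members past the threshold there numbered 0, and 3 with block and GC together (9.38%, beside 20.7% of all genes). For ethanol against control 506 genes passed, and 3443, 1074, 2309 and 5087 under those alternatives, with 98 to 2766 when 1 library was left out. Members numbered 1, 0 with no filter, and 7 with the 6 libraries (21.9%, beside 26.8% of all genes). They numbered 3 with the block (9.38%, beside 8.35%), 5 with the GC trend removed (15.6%, beside 18.1%) and 11 with both (34.4%, beside 39.9%). With 1 library left out they numbered 0 to 4. For acetate against ethanol 480 genes passed, and 107, 823, 1531 and 4307 under those alternatives, with 103 to 1108 when 1 library was left out. Members numbered 1, 0 with the 6 libraries, and 3 with the block (9.38%, beside 6.4% of all genes). They numbered 5 with the GC trend removed (15.6%, beside 12.0%), 13 with both (40.6%, beside 33.8%) and 0 to 4 with 1 library left out. Alternative values were tallied only for Hdac2, Hdac7, Hdac11, Sirt1, Sirt3, Sirt5, Ep300, Crebbp, Kat2b and Hat1. Among these values, 451 kept direction and side of the threshold, 29 newly passed, 11 no longer passed and 19 changed sign. Members outside that tally also changed sides. For ethanol against control Hdac1 passed in 4 of 17 alternatives and Kat2a in 3 of 17. Sign changes in acetate against control were Hdac11 at -0.0187 with the GC trend removed, with or without the block, and Crebbp at -0.0123 with median-of-ratios scaling and -0.0471 with the GC trend removed, with or without the block. With 1 library left out, log2 differences in acetate against control ran from -0.14 to 0.12 for Crebbp, from -0.17 to 0.0873 for Ep300, from -0.67 to 0.0186 for Hdac2 and from -0.71 to 0.0444 for Sirt1. In ethanol against control they ran from -0.0383 to 0.0299 for Hat1 and from -0.15 to 0.0594 for Sirt3. In acetate against ethanol they ran from -0.98 to 0.0069 for Hat1 and from -0.61 to 0.0722 for Hdac2. The causes were not tested. Residual degrees of freedom were 6 in the fit of all 9 libraries without a block, 5 with 1 library left out and 4 with the 6 libraries compared. Those added by sharing variance between genes were 3.367 in the fit of all 9 libraries. They were 5.143 without acetate replicate 2 and 6.137 with the 6 ethanol and control libraries. With 3 libraries per group, log2 differences with standard errors of 0.10 to 0.41 limit what could be resolved for these genes.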
